A study of Mus musculus with 16 samples.

Results

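Synaptic vesicle and SNARE genes were measured in GABAergic cells sorted from the newborn mouse brain. The genes were chosen by the names that the array gives its probes: the synaptotagmins (Syt), syntaxins (Stx), VAMPs, SNAPs, synapsins (Syn), SV2 proteins, Rab3 proteins, complexins (Cplx) and syntaxin-binding proteins (Stxbp), with rabphilin (Rph3a) and synaptophysin (Syp). This gave 57 genes, with 115 probes, of 28659 genes on the array. All 57 passed the filter on dim signal, as did 27266 of the 28659. Another 16 probes carry other array names for genes of these families (Sybl1 for Vamp7, Epim for Stx2 and others) and fell outside the choice.

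The cells came from GAD67-eGFP mice on a C57Bl/6 background at postnatal day 1. In these mice a fluorescent reporter marks cells that make glutamate decarboxylase 67, an enzyme of GABA synthesis. Fluorescent cells were sorted from the whole brain (4 arrays) and from 4 dissected regions with 3 arrays each. The regions were olfactory bulb, cortex and striatum, which make up the forebrain regions here, and cerebellum. Each whole-brain label names 4 mice and each regional label 6 dissected mice. Whether these numbers count mice per array or over arrays was not established. On every array the sorted cells (Cy5) were set against 1 common reference (Cy3), brain RNA of 4 mice of the same age, here called total brain. The labels write red beside both dyes, so the direction of the ratio was taken from the dye names and the labelling protocol, which give Cy5 to the sample and Cy3 to the reference. Both were amplified by the same global PCR. The dyes were not swapped, so a dye effect of a probe stays in its ratio, and the test of a ratio leaves out the spread of the reference itself. The replicates are called biological in the labels, which leave unstated whether the regions were taken from the same mice.

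A synaptic vesicle fuses with the plasma membrane when its SNARE protein, a VAMP, zips up with a syntaxin and a SNAP on the target membrane. Syntaxin-binding (Munc18-type) proteins hold syntaxins for assembly, complexins clamp and aid the complex, and synaptotagmins sense calcium and set off fusion. Synapsins tether vesicles in a reserve, and Rab3 GTPases with their effector rabphilin steer vesicles to release sites. Many other syntaxins and VAMPs serve membrane traffic inside all cells, between endoplasmic reticulum, Golgi, endosomes and lysosomes.

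The median signal of the spots on an array lay between 150.9 and 717.5 units for sorted cells and between 92 and 254 units for total brain. All 4 whole-brain arrays were scanned in a session of their own, and the 12 regional arrays in another, so for the whole-brain cells scan session and source cannot be told apart. Of 7 GABAergic genes checked, 7 were higher than in total brain in cells of each forebrain region, 6 in cells of the cerebellum and 5 in whole-brain cells. On the whole-brain arrays the gene of the reporter went against the label: Gad1, which encodes GAD67, had a log2 ratio of -1.51 there and ratios between 0.79 and 0.91 in the regional cells. Gad2, the gene of the other such enzyme, was at -0.28 in whole-brain cells and between 0.9 and 1.89 in the regions. Of 7 glutamatergic genes, 5 to 7 were lower in each group.

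The first comparisons asked how the sorted cells differ from total brain, in log2 ratios of sorted cells over total brain. Most of the vesicle and SNARE genes were lower in the sorted cells. In whole-brain cells 40 of the 57 genes were called lower and 10 higher, with a median log2 ratio of -0.94. A call means a Benjamini-Hochberg adjusted p under 0.05 in limma's fit over all genes tested. Of all genes tested 79.7% were called there, 34.5% lower and 45.2% higher, and their median was 0.09. At least 2-fold lower were 28 of the 57 (49.1%), against 13.7% of all genes, and at least 2-fold higher were 4, against 8.64%. In bulk samples such as these, fewer cells of a kind and less RNA per cell cannot be told apart.

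The regional cells, set against the same reference, gave similar counts. For them total brain is not the tissue they came from, so differences of region and of cell type cannot be told apart in these ratios. In olfactory bulb cells 42 genes were lower and 5 higher (67.9% of all genes called, 31.2% lower and 36.7% higher), with a median of -0.86 against 0.03 for all genes. Of these 5, the call of Syt15 rests on 1 array, whose spread was taken from the other groups, and without it 4 were higher. In cortex cells 43 were lower and 5 higher (69.5% called, 31.5% lower and 38% higher), with a median of -0.65 against 0.04. In striatum cells 44 were lower and 5 higher (67.6% called, 31.4% lower and 36.1% higher), with a median of -0.56 against 0.03. In cerebellum cells 40 were lower and 7 higher (76% called, 33.2% lower and 42.8% higher), with a median of -0.62 against 0.08.

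Past 2-fold, olfactory bulb cells had 23 genes lower (8.09% of all genes) and 2 higher (6.34%), and cortex cells had 18 lower (7.87%) and 1 higher (6.03%). Striatum cells had 19 lower (5.87%) and 2 higher (3.56%, and 9.44% in either direction), and cerebellum cells 16 lower (8.3%) and 2 higher (8.36%). The median of the genes depended on the normalization: with median centring in place of loess it was -0.44 in whole-brain cells, -0.47 in olfactory bulb cells, -0.43 in cortex cells and -0.36 in striatum cells. The split was then 33 lower and 16 higher in whole-brain cells and 36 lower and 10 higher in olfactory bulb cells.

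**Figure D1:**
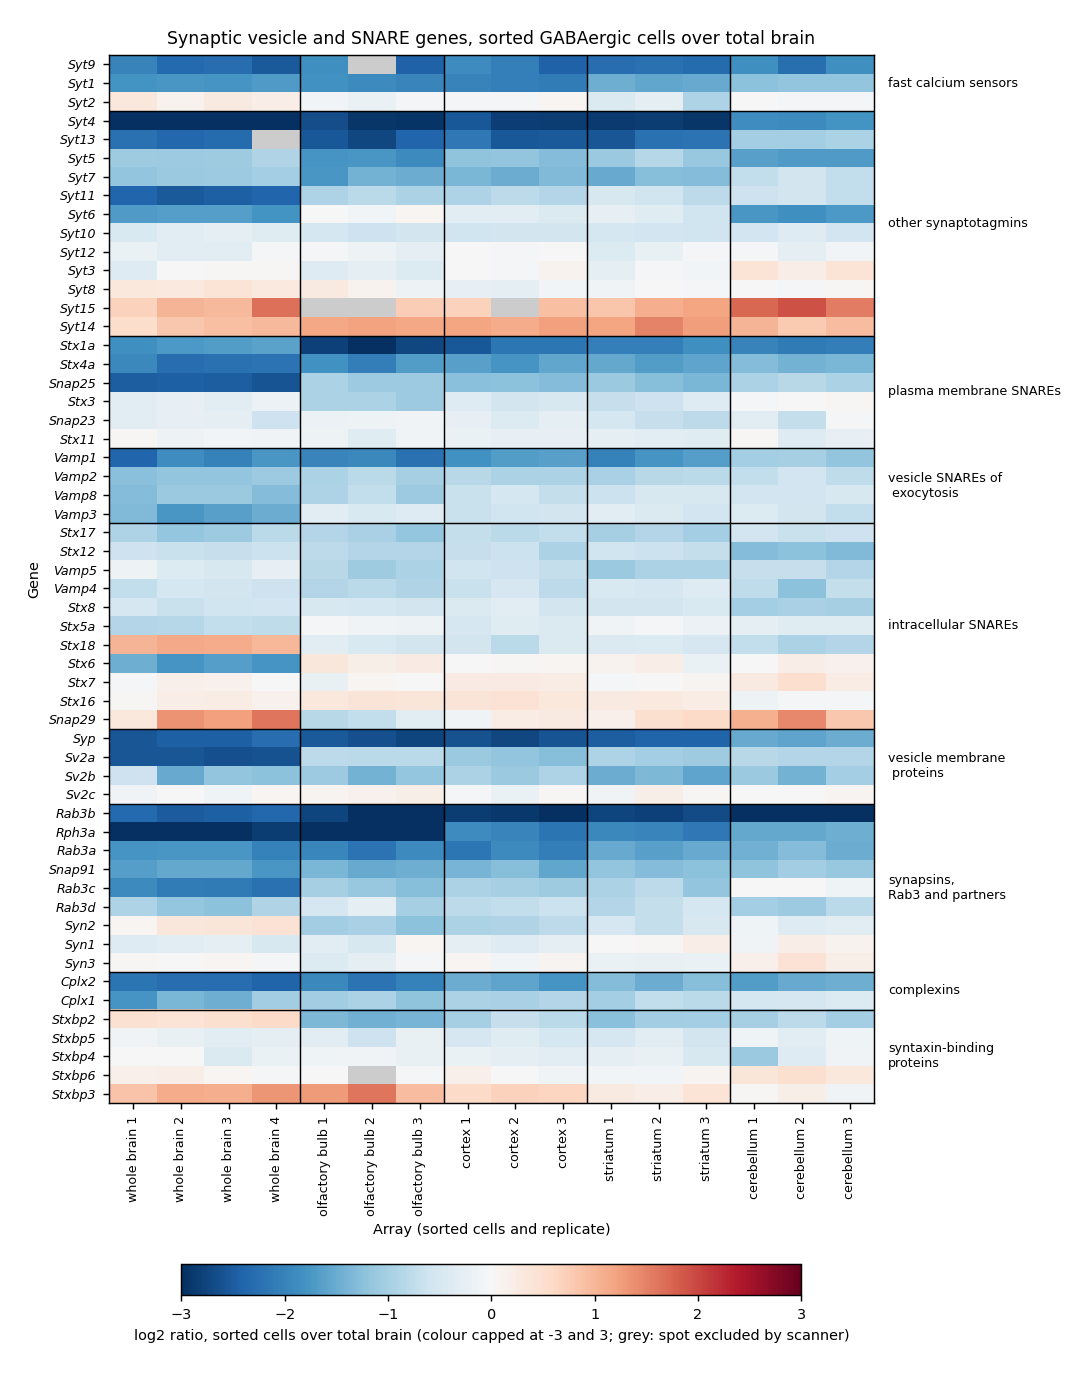
Log2 ratio of sorted cells over total brain for 56 of the 57 genes (rows, by role) on the 16 arrays (columns, by source of the cells and replicate). Blue is lower and red higher in the sorted cells, with colour capped at 3 in each direction; grey marks spots that the scanner software excluded. Syt4, Rab3b, Syp and Stx1a are blue on all 16 arrays, and Syt14 is red on all 16.

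The genes were then split by where their products work, a split made with earlier results of these data known. A core of 21 genes serves the nerve terminal, among them Syt1, Syt2, Stx1a, Snap25, Vamp1, Vamp2, Syp, the SV2 genes, the synapsins, Rab3a, Rab3b, Rab3c, Rph3a, Snap91 and the complexins. Of these, 17 were lower and 2 higher in whole-brain cells (34.5% and 45.2% of all genes), with a median log2 ratio of -1.71. In olfactory bulb, cortex, striatum and cerebellum cells 19, 18, 19 and 16 of the 21 were lower (31.2%, 31.5%, 31.4% and 33.2% of all genes), with medians of -1.13, -1.19, -1.23 and -0.91. The other 36 genes include Syt4, Syt9 and Syt13. Their medians were -0.37 in whole-brain cells and -0.48, -0.47, -0.46 and -0.54 in cells of those 4 regions. The core genes had the lower median in all 5 groups, which describes these genes and was not tested.

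**Figure D2:**
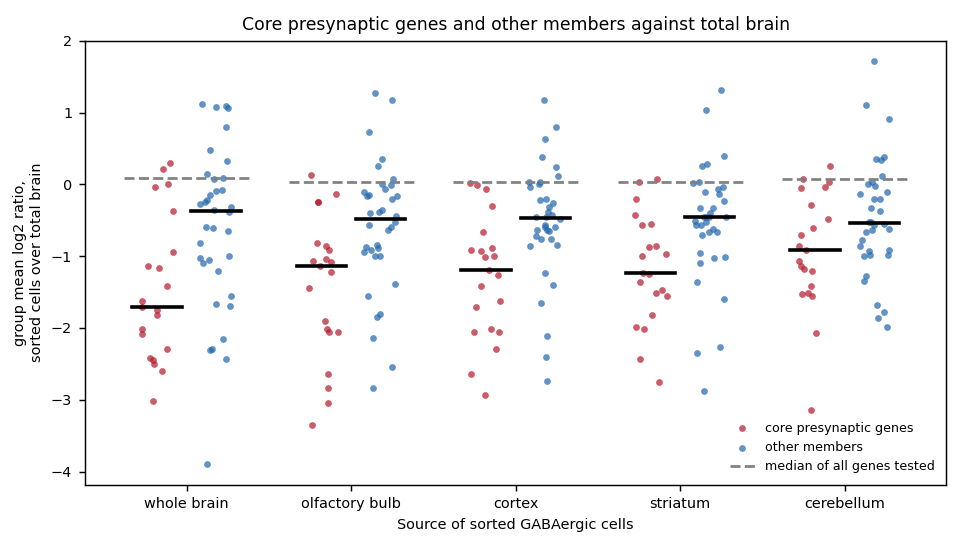
Group mean log2 ratio of sorted cells over total brain for each gene (points), in the 5 groups of sorted cells. Points in 1 colour are the 21 core presynaptic genes and those in the other the remaining 36, with black bars at their medians and a dashed line at the median of all genes tested. In whole-brain cells the bars lie at -1.71 and -0.37 and the line at 0.09.

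By their brightest probes, the SNARE genes of the plasma membrane were lower wherever they were called, 5 or 6 of 6 in each group. Stx1a encodes syntaxin 1A, a target SNARE of neurons. It had log2 ratios of -1.85, -1.73, -1.67 and -1.6 on the whole-brain arrays and of -2.80, -3.01 and -2.72 on the olfactory bulb arrays. In cortex cells the ratios were -2.55, -2.16 and -2.17, in striatum cells -2.05, -2.06 and -1.83, and in cerebellum cells -2.01, -2.12 and -2.07. All 16 arrays thus lay below total brain, and the 3 olfactory bulb arrays were below the other 13. The gene was 7.17-fold lower in olfactory bulb cells (adjusted p = 2.1e-16, limma) and 3.28-fold lower in whole-brain cells.

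Snap25, its partner on the same membrane, was at -2.47, -2.44, -2.48 and -2.59 in whole-brain cells. The 12 regional arrays lay between -1.36 and -0.84, above all 4 whole-brain arrays. The 3 probes of Snap25 lay between -2.51 and -1.99 in whole-brain cells. Stx4a, a syntaxin of exocytosis in many cell types, had a mean of -2.16 in whole-brain cells and means between -1.85 and -1.35 in the regions. A dimmer probe of Stx4a had -0.05 in whole-brain cells and 0.42 in cerebellum cells, where it was called higher. Stx3, Snap23 and Stx11, which also serve exocytosis outside synapses, had group means between -1.0 and -0.02 by their brightest probes. The 4 probes of Stx3 lay between -1.99 and -0.27 in whole-brain cells. Probes of Snap23 were called in opposite directions in whole-brain, cortex and cerebellum cells. The highest of them was at 0.39 in whole-brain cells and 0.33 in cerebellum cells. Stx11 was not well above background in the sorted-cell channel in olfactory bulb and cortex cells, which leaves bounds of at least 1.14-fold and at least 1.13-fold lower than total brain.

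All 4 VAMP genes of exocytosis were lower in all 5 groups. Vamp1, a synaptic VAMP, had -2.39, -1.86, -2.03 and -1.74 on the whole-brain arrays and -1.02, -1.0 and -1.19 on the cerebellum arrays. The arrays of olfactory bulb, cortex and striatum lay between -2.25 and -1.64, so that the cerebellum arrays were above all others. Vamp2, the main synaptic VAMP of forebrain, had means between -1.17 and -0.70, and all 3 of its probes were below 0 in each group. Vamp3 and Vamp8, of recycling endosomes and of regulated secretion outside neurons, had means of -1.55 and -1.21 in whole-brain cells and means between -0.92 and -0.38 in the regions.

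The 3 fast calcium sensors were unlike each other. Syt1, the sensor of fast release in forebrain, had -1.79, -1.74, -1.78 and -1.69 in whole-brain cells, where its 5 probes lay between -2.92 and -1.40. Its mean was -1.21 in cerebellum cells, -1.51 in striatum cells, -1.90 in olfactory bulb cells and -2.05 in cortex cells. Syt9, another fast sensor, had means between -2.29 and -1.98, with 1 olfactory bulb array excluded by the scanner software. Its sorted-cell signal was dim, between 6.01 and 6.85 in log2 units. Syt2, the fast sensor of hindbrain synapses and of many inhibitory ones, stood nearer to total brain, at 0.22 in whole-brain cells (adjusted p = 0.0106) and uncalled at -0.13, -0.01 and -0.03 in olfactory bulb, cortex and cerebellum cells. In striatum cells Syt2 was lower, with arrays at -0.44, -0.27 and -0.93.

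Syt4, a synaptotagmin of dense-core vesicles, had the lowest group mean of the 57 genes. Its ratios were -3.63, -4.28, -3.92 and -3.78 on the whole-brain arrays, or 15-fold lower than total brain (adjusted p = 4.21e-19). They lay between -2.93 and -2.54 on the 9 forebrain arrays, and at -1.87, -1.92 and -1.80 on the cerebellum arrays. The second probe of Syt4 had -3.74 in whole-brain cells and -1.78 in cerebellum cells, close to the first. In whole-brain cells the sorted-cell signal of the first probe was dim, at 6.08 to 6.51 in log2 units, though well above background on all 4 arrays. Stx11, not well above background in olfactory bulb cells, had 6.17 there. Syt13, a synaptotagmin that does not bind calcium, lay between -2.73 and -2.14 on the arrays of whole brain and forebrain, with 1 whole-brain array excluded. Its cerebellum arrays stood above these at -1.02, -1.02 and -0.94. Its second probe was nearer to total brain, with means between -1.05 and -0.36.

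Syt5 and Syt7, of which Syt7 is a slow calcium sensor, were lower in all groups, with means between -1.80 and -0.67. Syt11, which does not bind calcium, had a mean of -2.43 in whole-brain cells and means between -0.89 and -0.62 in the regions. Its 3 probes ran from -2.43 to 1.01 in whole-brain cells, so the level of Syt11 depends on the probe. Syt3 was called higher in cerebellum cells (0.35), and Syt8, Syt10 and Syt12 had group means between -0.56 and 0.33.

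Syt14 and Syt15, synaptotagmins that act without calcium, were higher than in total brain. Syt14 was at 0.52, 0.81, 0.91 and 0.97 in whole-brain cells and at 1.19, 1.49 and 1.26 in striatum cells. The other regional arrays lay between 0.78 and 1.22, so all 16 arrays were above 0. Syt14 was 2.49-fold higher in striatum cells (adjusted p = 1.75e-11) and 1.75-fold higher in whole-brain cells, and its second probe had means between 0.31 and 1.39.

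Syt15 had ratios of 1.72, 1.92 and 1.54 in cerebellum cells, 3.3-fold higher (adjusted p = 2.37e-09), and of 0.68, 1.03, 0.98 and 1.65 in whole-brain cells. In striatum cells it had 0.83, 1.09 and 1.18. The total brain signal of this probe varied between arrays, from 7.82 to 9.19 in log2 units. Only 1 olfactory bulb array (0.73) and 2 cortex arrays (0.69 and 0.91) gave a value, so the call in olfactory bulb cells has no replicate check. A dimmer probe of Syt15 had 0.15 in cerebellum cells, 0.15 in whole-brain cells and -0.29 in olfactory bulb cells. Averaged over probes Syt15 was at -0.17 in olfactory bulb cells (adjusted p = 0.229), so the direction there depended on the probe.

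Among vesicle membrane genes, Syp encodes synaptophysin, a widely used marker of synaptic vesicles. Its ratios were -2.57, -2.45, -2.46 and -2.29 in whole-brain cells and lay between -2.75 and -2.40 on the 9 forebrain arrays. The cerebellum arrays, at -1.51, -1.58 and -1.49, were above all others. Syp was 6.25-fold lower in cortex cells (adjusted p = 3.2e-17) and 2.88-fold lower in cerebellum cells.

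Sv2a, an SV2 protein of synaptic vesicles throughout the brain, was at -2.57, -2.57, -2.64 and -2.62 in whole-brain cells and between -1.28 and -0.79 on the regional arrays. Its second probe had -0.47 in whole-brain cells and 0.01 in olfactory bulb cells, so the size of its difference depends on the probe. Sv2b had means between -1.47 and -1.0, with its dimmest probe at 0.25 in whole-brain cells. Sv2c stayed between -0.19 and 0.18 on all arrays and was called in no group. It was well above background on 7 of the 16 arrays in the total brain channel.

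By their brightest probes, Rab3b and the effector gene Rph3a were among the lowest. Rab3b had -2.34, -2.50, -2.46 and -2.36 in whole-brain cells, -2.76, -3.23 and -3.12 in olfactory bulb cells and -3.03, -3.41 and -2.98 in cerebellum cells. The cortex and striatum arrays lay between -3.04 and -2.68, so every array was far below total brain. Rab3b was 8.82-fold lower in cerebellum cells (adjusted p = 2.85e-16). A dimmer probe of Rab3b had means between -0.17 and -0.04 and was called in no group. Rab3a, the main Rab3 of brain, had means between -2.05 and -1.41, and Rab3d, known from secretory cells, between -1.06 and -0.59.

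Rph3a had -3.02, -2.98, -3.25 and -2.84 in whole-brain cells and -3.17, -3.40 and -3.50 in olfactory bulb cells, where it was 10.2-fold lower than total brain (adjusted p = 2.67e-17). The cortex and striatum arrays lay between -2.19 and -1.89 and the cerebellum arrays between -1.54 and -1.46, all above those of whole brain and olfactory bulb. Its second probe had means between -1.69 and -0.71, also lowest in olfactory bulb cells.

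Rab3c had ratios of -1.91, -2.10, -2.11 and -2.24 in whole-brain cells and between -1.27 and -0.78 on the forebrain arrays. In cerebellum cells they were 0.00, 0.00 and -0.14, a mean not called against total brain (-0.05, adjusted p = 0.578). A second Rab3c probe had -1.73 in whole-brain cells and 0.05 in cerebellum cells, in the same order. Snap91, the clathrin adaptor AP180 of vesicle recycling, had means between -1.62 and -1.13, while a dimmer probe had means between 0.63 and 1.68.

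The synapsins were closer to total brain. Syn1 had means between -0.37 and 0.07 by its brightest probe, while a dimmer one had means between -2.16 and -1.68. Syn2 was called higher in whole-brain cells (0.30, adjusted p = 0.000396) and lower in all 4 regions, with -1.08 in olfactory bulb cells. Its other 2 probes had -0.40 and -1.66 in whole-brain cells, against the brightest. Syn3, a synapsin of developing neurons, had means between -0.25 and 0.26.

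Both complexins were lower in all 5 groups by their brightest probes. Cplx2 had -2.18, -2.29, -2.29 and -2.41 in whole-brain cells and between -2.21 and -1.27 on the regional arrays. Its other 3 probes had -3.15, -2.28 and -0.17 in whole-brain cells, the last near total brain. In each region probes of Cplx2 were called in opposite directions, the highest at 0.19 in olfactory bulb cells and 0.55 in cerebellum cells. Cplx1 had means between -1.41 and -0.48.

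Of the syntaxin-binding genes, Stxbp3, the Munc18-3 gene, whose product partners syntaxin 4, was higher than in total brain. It had 0.85, 1.11, 1.09 and 1.32 in whole-brain cells and 1.27, 1.6 and 0.93 in olfactory bulb cells. In cortex cells it had 0.58, 0.68 and 0.65, in striatum cells 0.27, 0.21 and 0.40 and in cerebellum cells 0.03, 0.17 and -0.11. Stxbp3 was 2.41-fold higher in olfactory bulb cells (adjusted p = 4.54e-10) and not called in cerebellum cells (adjusted p = 0.78), where its arrays lay on both sides of 0. In striatum cells its call was lost without replicate 3 of striatum (0.24, adjusted p = 0.0944). Stxbp2, the Munc18-2 gene of epithelial and immune secretion, was higher in whole-brain cells (0.48, adjusted p = 3.46e-07) and lower in the regions, with means between -1.39 and -0.84. Stxbp4, Stxbp5 and Stxbp6 had means between -0.53 and 0.38, with Stxbp6 called higher in cerebellum cells (0.38).

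The 11 intracellular SNARE genes had medians of -0.59, -0.52, -0.45, -0.45 and -0.62 in whole-brain, olfactory bulb, cortex, striatum and cerebellum cells. Stx8, Stx12, Stx17, Vamp4 and Vamp5, most of them known from endosomes, autophagosomes or the Golgi, were lower in all groups by their brightest probes, with means between -1.28 and -0.32. The dimmest of the 4 probes of Stx8 was called higher in whole-brain (0.31) and cerebellum cells (0.50). Stx16, of the trans-Golgi, was called higher in all groups but cerebellum, at 0.15 in whole-brain cells and between 0.26 and 0.38 in forebrain cells, with cerebellum arrays at -0.16, -0.06 and -0.07. Stx5a, of the Golgi, and Stx7, of late endosomes, had means between -0.81 and 0.34, and Stx7 was called higher in cortex (0.24) and cerebellum cells (0.34).

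Stx6, of the trans-Golgi and endosomes, had -1.47, -1.77, -1.65 and -1.76 in whole-brain cells and between -0.20 and 0.35 on the regional arrays. In olfactory bulb cells it was called higher (0.26), a call lost without replicate 1 of olfactory bulb (0.21) and turned to -0.11 by averaging its probes (adjusted p = 0.0916). Stx18, of the endoplasmic reticulum, had 1.01, 1.14, 1.12 and 0.99 in whole-brain cells and between -0.96 and -0.31 on the regional arrays. It was thus 2.09-fold higher in whole-brain cells and lower in each region.

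Snap29, a SNAP of autophagosome fusion, had no settled direction. Its brightest probe gave 0.32, 1.34, 1.22 and 1.61 in whole-brain cells and 1.07, 1.45 and 0.80 in cerebellum cells, both called higher. It gave -0.83, -0.73 and -0.33 in olfactory bulb cells, which were called lower. The total brain signal of this brightest probe varied between arrays, from 8.35 to 10.03 in log2 units. The other 2 probes had -3.20 and -3.0 in whole-brain cells, -1.58 and -1.05 in cerebellum cells and -1.08 and -0.95 in olfactory bulb cells. Averaged over its 3 probes the gene was lower in whole-brain (-1.69), striatum (-0.58) and cerebellum cells (-0.51). In striatum cells the call of the brightest probe (0.40) was lost without replicate 2 of cortex (0.40) and without replicate 2 (0.37) or 3 of striatum (0.31).

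Such splits between probes of a gene were frequent. Of the 57 genes, 36 had 2 or more probes. In whole-brain cells the probes of 8 of the 36 were called in opposite directions, and all probes of 20 were called in the same direction. In olfactory bulb, cortex, striatum and cerebellum cells 6, 5, 5 and 9 were called in opposite directions, with Cplx2, Snap91, Sv2b and Syt11 among them in each. Which transcripts the probes read was not analysed here.

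**Figure D3:**
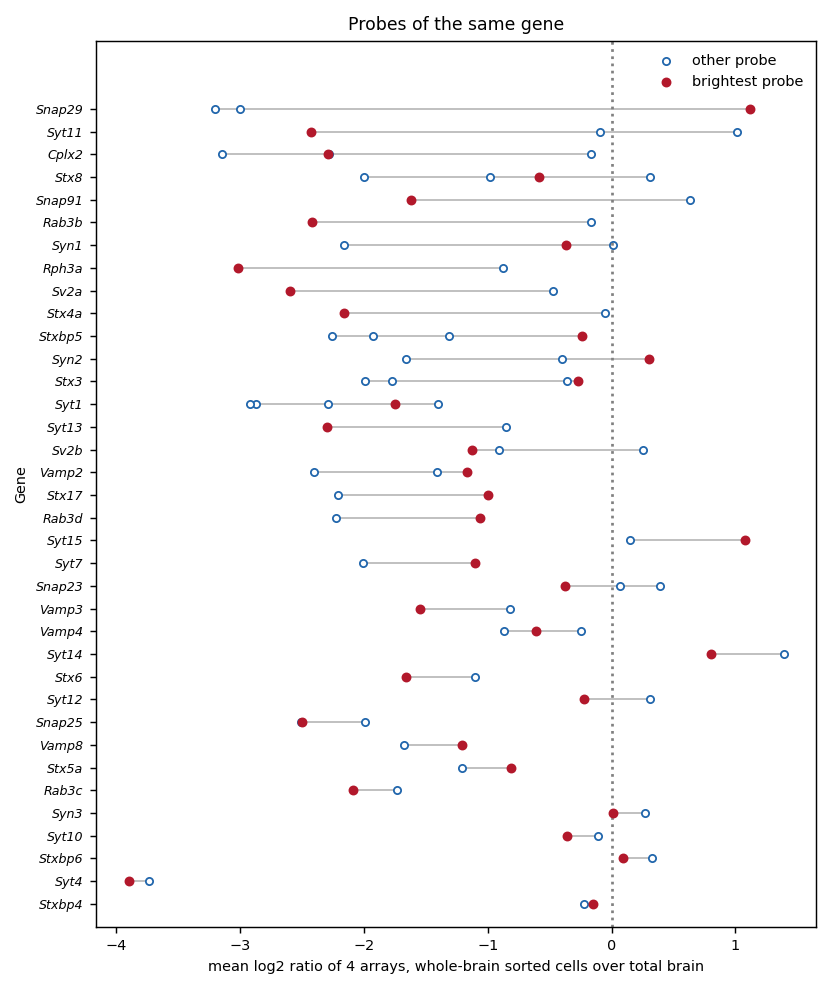
Mean log2 ratio of sorted cells over total brain on the 4 whole-brain arrays for each probe that passed the filter, in the 36 genes with 2 or more probes. The filled point is the brightest probe, which stands for the gene, and the other points are the remaining probes. For Snap29 they lie at 1.12, -3.0 and -3.20, and for Syt4 at -3.74 and -3.90.

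A further list of 43 genes of the vesicle cycle and active zone was taken for context. Of these, 29 were lower and 10 higher in whole-brain cells (34.5% and 45.2% of all genes), with a median of -0.75 against 0.09 for all genes. In olfactory bulb, cortex, striatum and cerebellum cells 28, 30, 31 and 31 were lower (31.2%, 31.5%, 31.4% and 33.2% of all genes) and 8, 7, 7 and 9 higher (36.7%, 38%, 36.1% and 42.8%). Their medians were -0.54, -0.62, -0.61 and -0.58, against 0.03, 0.04, 0.03 and 0.08 for all genes. Sncb, the gene of beta-synuclein in nerve terminals, was the lowest of the 43 in each group, from -3.45 in whole-brain cells to -3.02 in cerebellum cells. Nsf, the ATPase that takes SNARE complexes apart, lay between -2.09 and -1.49. Rims1, a scaffold that docks vesicles at the active zone, was higher in each group, between 0.54 and 1.08.

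The next comparisons asked how cells of different regions differ. They share the total brain reference, and all 12 regional arrays share a scan session. Among the 4 regions 44 of the 57 genes differed by limma's F test, against 57.5% of all genes tested, and 44 did so when the whole-brain arrays were left out of the fit. Differences of at least 2-fold between the highest and the lowest region were found for 8 of the genes, against 3.77% of all genes. These were Rph3a (1.84), Syt6 (1.78), Snap29 (1.74), Syt13 (1.56), Stxbp3 (1.24), Syp (1.12), Rab3c (1.09) and Syt4 (1.02), each value being the log2 range of the region means.

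Against the mean of the 3 forebrain regions, 25 of the genes were higher and 10 lower in cerebellum cells (40.5% of all genes called, 24% higher and 16.5% lower), and 4 passed 2-fold (1.17% of all genes). All 13 core presynaptic genes that were called were higher in cerebellum cells. The split was 16 higher and 12 lower with median centring, and 34 higher and 7 lower with scaling between arrays.

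Syt13 had the largest difference upwards by its brightest probe, with a mean log2 ratio of -0.99 in cerebellum cells and -2.43 in forebrain cells, a difference of 1.44 ± 0.10 (SE; adjusted p = 3.53e-09). Its second probe differed by 0.43. Syp differed by 1.04 ± 0.07 (-1.53 in cerebellum cells and -2.57 in forebrain cells; adjusted p = 2.56e-09). For both genes the cerebellum arrays lay above all 9 forebrain arrays.

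The same held for Rab3c, with a difference of 0.99 ± 0.09 (adjusted p = 6.93e-08), for Syt4, with 0.95 ± 0.11 (adjusted p = 1.39e-06), and for Rph3a, with 0.95 ± 0.09 (adjusted p = 1.99e-07). The second probes of Rab3c, Syt4 and Rph3a differed by 0.93, 0.78 and 0.23. In the sorted-cell channel alone the differences of Syt13, Syp, Rab3c, Syt4 and Rph3a were 1.40, 0.77, 0.84, 0.97 and 0.93. Syt15 differed by 0.87 by its brightest probe, which had no value on 3 arrays. Differences were smaller for Vamp1 (0.79), Syt7 (0.76), Stx3 (0.66), Syt1 (0.62) and Syn2 (0.56). Snap29 differed by 1.14 by its brightest probe, the others differing by -0.33 and -0.02. In the total brain channel the brightest probes of Syt15 and Snap29 also differed, by 0.54 and 0.67. In the sorted-cell channel they differed by 1.40 and 1.81.

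Syt6 went the other way. This synaptotagmin, known from the acrosome of sperm, had -1.75, -1.85 and -1.73 in cerebellum cells. It had 0.01, -0.08 and 0.05 in olfactory bulb cells, -0.35, -0.35 and -0.43 in cortex cells and -0.24, -0.37 and -0.60 in striatum cells. The difference was -1.52 ± 0.07 (SE; 2.87-fold; adjusted p = 1.17e-11), with no overlap of arrays, and the gene has 1 probe. Stxbp3 differed by -0.70 ± 0.11 (0.03 in cerebellum and 0.73 in forebrain cells; adjusted p = 7.36e-05). Stx12 (-0.53), Stx8 (-0.50) and Stx16 (-0.43), all of intracellular traffic, were also lower in cerebellum cells. For Stx8 the averaged probes gave -0.10 (adjusted p = 0.172), and for Stx12 the sorted-cell channel alone gave -0.34 (adjusted p = 0.122).

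Markers of the cells differed between the same groups. Of the 7 GABAergic genes 5 were lower and 1 higher in cerebellum than in forebrain cells, with array means of the list between 0.62 and 0.87 in cerebellum cells and between 1.87 and 2.27 in forebrain cells. Of 6 genes of the cerebellar granule cell lineage 4 were higher and 1 lower, with array means between 0.71 and 0.96 in cerebellum cells and between 0.05 and 0.67 in forebrain cells. Of the 7 glutamatergic genes 3 were higher and 1 lower, with array means between -1.75 and -1.46 in cerebellum cells and between -2.45 and -1.85 in forebrain cells. Of 6 oligodendrocyte genes 3 were higher and none lower, with array means between -1.03 and -0.88 in cerebellum cells and between -1.61 and -1.07 in forebrain cells, which did not overlap. Of 6 microglia genes 3 were higher and 1 lower (-0.31 to -0.23 in cerebellum cells and -0.99 to -0.20 in forebrain cells), and of 7 astrocyte genes 4 were higher and 1 lower (-1.34 to -1.14 in cerebellum cells and -2.02 to -1.16 in forebrain cells). Of 6 proliferation genes 2 were higher (0.26 to 0.55 in cerebellum cells and -0.14 to 0.60 in forebrain cells), and of 5 endothelial genes none was called. The part of these cells in the differences of the vesicle genes was not tested.

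**Figure D4:**
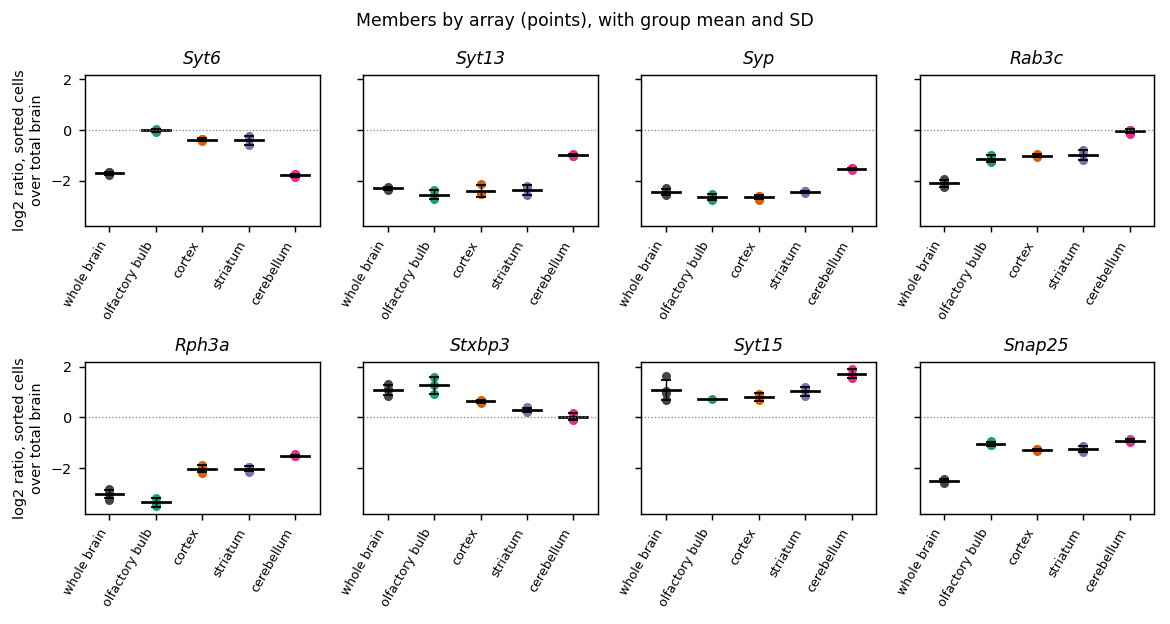
Log2 ratio of sorted cells over total brain on each array (points) for 8 genes in the 5 groups of sorted cells, with the group mean and SD (n = 4 arrays for whole brain and 3 for each region, less where the scanner software excluded a spot). The cerebellum arrays lie above the forebrain arrays for Syt13, Syp and Rab3c and below them for Syt6, and Rph3a is lowest in olfactory bulb at a mean of -3.35.

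Promoters of 5 genes with large regional differences are shown to set their sequence beside the data. The windows run from 250 bases before to 50 after the start that RefSeq lists first for the gene, on build GRCm38.p6, written 5′ to 3′ on the strand of the gene. Capitals mark GGGCGG, the GC box that binds Sp1-type factors, and TGACGTCA, the cAMP response element, on either strand (a GC box on the other strand reads CCGCCC).
Syp, chrX:7638330-7638629, plus strand: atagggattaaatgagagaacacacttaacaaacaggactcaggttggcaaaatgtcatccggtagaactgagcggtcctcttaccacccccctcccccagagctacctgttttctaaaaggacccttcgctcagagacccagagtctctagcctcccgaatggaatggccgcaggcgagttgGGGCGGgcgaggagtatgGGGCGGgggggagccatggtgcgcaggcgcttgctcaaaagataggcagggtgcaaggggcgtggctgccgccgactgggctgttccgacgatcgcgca
Rab3c, chr13:110280157-110280456, minus strand: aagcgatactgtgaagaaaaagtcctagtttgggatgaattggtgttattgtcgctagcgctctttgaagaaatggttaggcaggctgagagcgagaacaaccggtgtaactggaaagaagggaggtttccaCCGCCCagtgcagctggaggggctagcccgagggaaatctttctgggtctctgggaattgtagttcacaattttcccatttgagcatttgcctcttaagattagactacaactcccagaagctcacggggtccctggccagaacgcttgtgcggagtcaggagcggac
Rph3a, chr5:121010043-121010342, minus strand: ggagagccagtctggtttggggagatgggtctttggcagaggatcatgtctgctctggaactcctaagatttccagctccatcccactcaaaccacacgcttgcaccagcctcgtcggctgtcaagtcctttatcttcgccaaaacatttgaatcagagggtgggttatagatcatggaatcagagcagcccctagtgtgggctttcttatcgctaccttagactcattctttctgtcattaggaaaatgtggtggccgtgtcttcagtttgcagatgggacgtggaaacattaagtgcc
Syt6, chr3:103574995-103575294, plus strand: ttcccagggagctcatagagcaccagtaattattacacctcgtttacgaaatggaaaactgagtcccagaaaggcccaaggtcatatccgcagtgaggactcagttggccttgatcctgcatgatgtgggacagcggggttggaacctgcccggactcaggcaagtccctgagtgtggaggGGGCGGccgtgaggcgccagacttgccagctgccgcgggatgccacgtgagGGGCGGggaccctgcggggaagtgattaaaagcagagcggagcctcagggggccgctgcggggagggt
Stxbp3, chr3:108840453-108840752, minus strand: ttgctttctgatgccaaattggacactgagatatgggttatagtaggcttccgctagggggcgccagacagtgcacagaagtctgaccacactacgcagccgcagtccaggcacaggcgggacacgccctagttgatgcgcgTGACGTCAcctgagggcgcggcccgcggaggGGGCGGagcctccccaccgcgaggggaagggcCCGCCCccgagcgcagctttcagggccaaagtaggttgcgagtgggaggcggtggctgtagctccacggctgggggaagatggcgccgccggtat

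RefSeq's table gave a window for 47 of the 57 genes and for 27025 genes in all, and 1 window was read per gene. The GC box was found in 34 of the 47 (72.3%) and in 35.9% of all genes. The windows of the 47 were also richer in G and C, with a median of 62.3% against 52.7% of all genes, and held a median of 19 CG pairs against 7. Among the printed windows, those of Syp, Syt6 and Stxbp3 held 2 GC boxes each, that of Rab3c 1, and that of Rph3a none. TGACGTCA was found in 2 of the 47, Stxbp3 and Syn1, and in 1.88% of all genes. TATAAA, the TATA box, was found in 3 (Rab3b, Stx3 and Sv2b) and in 14.2% of all genes. TTCAGCACC, the left part of the RE1 element that binds the repressor REST, was found in Syn1 and in 0.359% of all genes. Both strands were searched for each motif, and a match describes the letters only.

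Within the forebrain fewer of the genes differed, and so did fewer of all genes tested. Called were 24.6%, 31.6% and 14% of the 57 genes for olfactory bulb against cortex, olfactory bulb against striatum and cortex against striatum. The shares of all genes were 16.4%, 27.7% and 18.8%, against 40.5% for cerebellum against forebrain. Between olfactory bulb and cortex cells 4 were higher and 10 lower in olfactory bulb (16.4% of all genes called, 8.25% higher and 8.17% lower), and past 2-fold 1 was lower (0.15% of all genes) and none higher (0.202%). That gene was Rph3a, with -3.35 in olfactory bulb and -2.02 in cortex cells, a difference of -1.34 (adjusted p = 1.95e-07), and its second probe differed by -0.86. Also lower in olfactory bulb cells were Syt5 (-0.58), Stxbp2 (-0.56), Stx1a (-0.55) and Snap29 (-0.75). The calls of Stxbp2 (-0.34, adjusted p = 0.0666) and Stx1a (-0.33, adjusted p = 0.123) were lost with median centring. That of Snap29 was lost with averaged probes (-0.04) and without replicate 1 or 2 of olfactory bulb or 2 or 3 of cortex (between -0.70 and -0.65). Higher in olfactory bulb cells were Stxbp3 (0.64 ± 0.14, SE; adjusted p = 0.00394), Sv2a (0.38), Syt6 (0.37) and Stx5a (0.33). With median centring the split was 6 higher and 3 lower.

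Between olfactory bulb and striatum cells 4 were higher and 14 lower in olfactory bulb (27.7% of all genes called, 14.3% higher and 13.4% lower). Rph3a differed by -1.34 (adjusted p = 9.07e-08), with -0.98 for its second probe. Snap29 differed by -1.03 by its brightest probe, Stx1a by -0.86, Syt5 by -0.77 and Cplx2 by -0.70. Stxbp3 was higher by 0.97 ± 0.14 (1.27 in olfactory bulb and 0.29 in striatum cells; adjusted p = 4.23e-05), as were Snap23 (0.51), Syt2 (0.42) and Syt6 (0.40). The call of Snap23 was lost in the sorted-cell channel alone (0.07, adjusted p = 0.8). That of Syt2 was lost without replicate 3 of striatum (0.23, adjusted p = 0.107), and that of Syt6 with median centring (0.38, adjusted p = 0.0643). With scaling between arrays 8 were higher and 12 lower.

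Between cortex and striatum cells 3 were higher and 5 lower in cortex (18.8% of all genes called, 8.94% higher and 9.88% lower), none of them by 2-fold (0.374% of all genes). Syt1 differed by -0.54 ± 0.08 (-2.05 in cortex and -1.51 in striatum cells; adjusted p = 0.000155), while its averaged probes gave -0.20 (adjusted p = 0.0947). Rab3a differed by -0.50 (adjusted p = 0.00328) and Stx5a by -0.33. Higher in cortex cells were Syt2 (0.54), Sv2b (0.47) and Vamp5 (0.37). The call of Vamp5 was lost without replicate 1 of cortex (0.35, adjusted p = 0.0578), without replicate 1 of striatum (0.32, adjusted p = 0.072) and in the sorted-cell channel alone (0.25, adjusted p = 0.334). The calls of Sv2b, Syn1 and Syn2 lay near the threshold (adjusted p = 0.0489, 0.0323 and 0.0466, limma) and were lost in several alternatives. Between 5 and 10 genes were called when single arrays were left out, and 5 was the count without replicate 1 or 3 of cortex or 1 of striatum. With scaling between arrays 10 were higher and 4 lower, and with the scanner's own log ratio 2 were higher and 8 lower.

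Markers of other cells also differed within the forebrain. Microglia array means lay between -0.99 and -0.74 in olfactory bulb, between -0.64 and -0.56 in cortex and between -0.24 and -0.20 in striatum cells. Proliferation means lay between -0.14 and 0.08 in olfactory bulb and between -0.06 and 0.06 in cortex cells, against 0.47 to 0.60 in striatum cells. Oligodendrocyte means lay between -1.61 and -1.39 in olfactory bulb and between -1.59 and -1.42 in cortex cells, against -1.12 to -1.07 in striatum cells. Astrocyte means were lowest in cortex cells (-2.02 to -1.83), against -1.45 to -1.28 in olfactory bulb and -1.21 to -1.16 in striatum cells. Of the 5 endothelial genes, 1 was higher and 2 lower in olfactory bulb than in striatum cells. Between cortex and striatum cells 1 was higher and 1 lower in cortex. Endothelial means lay between -1.15 and -1.0 in olfactory bulb, between -1.02 and -0.94 in cortex and between -0.98 and -0.64 in striatum cells. The part of these cells in the forebrain differences of the vesicle genes was not tested.

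The last comparison set the whole-brain cells against the mean of the 4 regions, where scan session and source cannot be told apart. Of the 57 genes 14 were higher and 23 lower in whole-brain cells (61.8% of all genes called, 31.3% higher and 30.5% lower), and 11 passed 2-fold (9.8% of all genes). Stx6 differed by -1.77 ± 0.08 (-1.66 in whole-brain cells and 0.11 over the regions; adjusted p = 7.36e-14), Syt11 by -1.68, Sv2a by -1.63, Snap25 by -1.38 and Syt4 by -1.33. Higher in whole-brain cells were Stx18, by 1.65 ± 0.07 (1.06 in whole-brain cells and -0.59 over the regions; adjusted p = 9.8e-14), Stxbp2 (1.54), Syn2 (1.01), Snap29 (0.87) and Stx1a (0.58). Averaged probes gave -0.11 for Syt11 (adjusted p = 0.066) and -0.99 for Snap29. Probes of 6 genes were called in opposite directions in this comparison: Snap29, Stx3, Syn2, Syt11, Syt14 and Vamp8. The split was 22 higher and 15 lower with median centring, 25 and 13 with scaling between arrays, and 19 and 20 with the scanner's own log ratio. The GABAergic list had array means between 0.80 and 1.06 in whole-brain cells and between 0.62 and 2.27 in regional cells. Of 6 microglia genes 4 were higher and 2 lower in whole-brain cells, of 6 oligodendrocyte genes 3 and 2, of 7 astrocyte genes 2 and 4, of 6 proliferation genes 2 and 4, and of 5 endothelial genes 1 and 0. Single genes of a list went both ways. Birc5, of dividing cells, differed by 1.67, while 4 of the 6 proliferation genes were lower. Of the microglia genes Csf1r differed by 0.86 and Cd68 by -0.67, and of the astrocyte genes Gja1 differed by -1.69 and Fabp7 by 0.40. The part of these cells in the values of the vesicle genes was not tested.

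**Figure D5:**
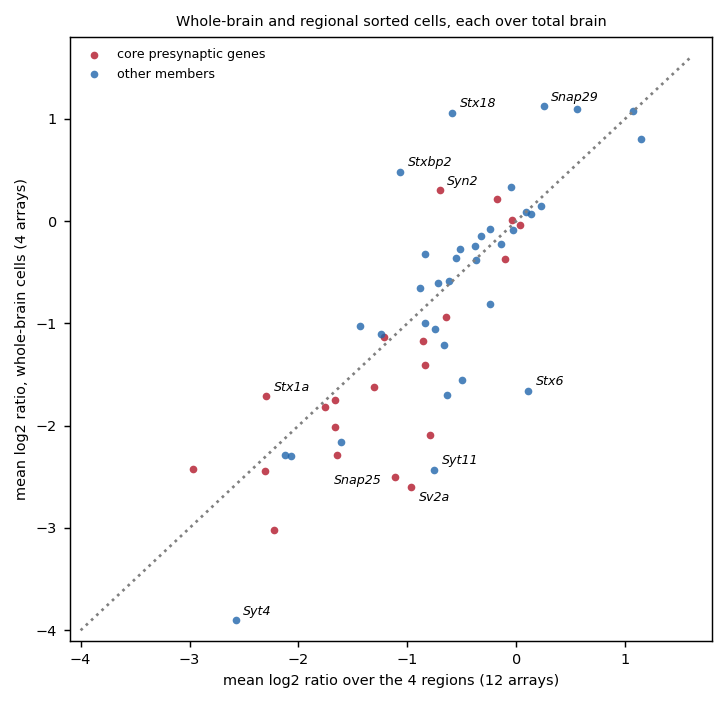
Mean log2 ratio over total brain in whole-brain cells (4 arrays) against the mean over the 4 regions (12 arrays) for the 57 genes, with a dotted line at equal ratios. By their brightest probes, Stx6, Syt11, Sv2a and Snap25 lie lower in whole-brain cells, and Stx18, Stxbp2 and Syn2 higher. Probes of Syt11 and Syn2 disagreed in direction.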

How the data were processed

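The deposited scanner files hold mean and background spot intensity in both channels, which the authors quantified with Agilent Feature Extraction 8.1.1.1, per the file headers and the submitters' processing notes. They also hold a log10 ratio of sorted cells over total brain that this software made, per the file headers, and the deposited value table equals it to within 0.005. R 4.3.3 with limma 3.58.1 then turned these intensities into log2 ratios here: normexp background correction (offset 50), loess within arrays, spots averaged per probe, and the brightest probe per gene. Genes well above background on at least 3 arrays in the sorted channel or 8 in the reference channel were kept, 27266 in all. All 16 arrays were fitted with 5 group means, and p-values adjusted by the Benjamini-Hochberg method over all genes. The fit was tested on simulated data. Spots that the scanner software excluded were dropped, which left Syt15 missing on 3 arrays and Syt9, Syt13 and Stxbp6 on 1 each. Signal over background and the number of arrays limit the precision. Gene symbols follow the array for members and RefSeq for other genes. Any member could be named, and in each comparison the 5 highest and 5 lowest among those called were given. Members, roles and lists were chosen with earlier results of these data known. Alternatives covered background, normalization, probes, filters, each array left out, and, for regions, a replicate block and the sorted channel alone.

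Replicate numbers were checked for pairing. Deviations of the regional arrays from their group means correlated between -0.113 and 0.228 for same-numbered arrays (18 pairs). Arrays of different numbers correlated between -0.232 and 0.242 (36 pairs). Yet 9 of the 12 arrays correlated best with an array of their own number, so pairing is not excluded. The main fit did not pair samples by number, and a replicate block was run as an alternative. Figures were drawn with matplotlib 3.10.9. Of the 57 genes, 1 is counted but not reported here by name.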

Additional observations from a re-analysis of the deposited data

Results flagged for a closer look

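On 3 occasions 1 of the 4 whole-brain arrays lay far from the others. The gap divided by the range was 0.853 for Rab3a, where array 4 was at -2.02 and the others between -1.78 and -1.74. It was 0.9 for Syt3, where array 1 was at -0.38 and the others between -0.01 and 0.03, and 0.873 for Syt5, where array 4 was at -0.90 and the others between -1.09 and -1.07. Each was above Dixon's critical value for 4 arrays, which chance passes in about 1 of 20 groups. All of the 57 genes were looked at except Syt13, which lacks 1 whole-brain array.

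The brightest probe of Snap29 differed in direction between regions. All cerebellum arrays were above total brain and all olfactory bulb arrays below it, with a range of region means of 1.74 that passed limma's F test (adjusted p = 8.58e-05). The other 2 probes of the gene were below total brain in both regions.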

How the results depend on the processing

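Among 101 differences of named genes, 2492 alternative values were computed, of which 2426 kept direction and call, 60 lost the call and 6 turned. All 6 came from averaging the probes: Snap29 at -1.69 in whole-brain, -0.58 in striatum and -0.51 in cerebellum cells and -0.99 for whole brain against the regions, Syt15 at -0.17 and Stx6 at -0.11 in olfactory bulb cells. The counts that moved by more than 1.5 times were these. With median centring 16 members were higher in whole-brain, 10 in olfactory bulb, 10 in cortex and 8 in striatum cells, and 16 were higher in cerebellum than in forebrain. Median centring also gave 9 called and 3 lower for olfactory bulb against cortex, 11 called and 8 lower for olfactory bulb against striatum, and 22 higher and 15 lower for whole brain against the regions. Scaling between arrays gave 8 higher for olfactory bulb against striatum, 14 called and 10 higher for cortex against striatum, and 25 higher and 13 lower for whole brain against the regions. The sorted-cell channel alone gave 8 higher for olfactory bulb against cortex, 9 lower for olfactory bulb against striatum, and 5 called and 3 lower for cortex against striatum. For cortex against striatum the scanner log ratio gave 8 lower, averaged probes 2 lower, probes well above background on all arrays 5 higher, and the arrays compared alone 5 higher. The causes were not tested.

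Leaving out single arrays gave 3 to 5 members higher in striatum cells (3 without replicate 3 of striatum) and 6 to 11 lower in olfactory bulb than in cortex cells (6 without replicate 3 of cortex). For cortex against striatum it gave 5 to 10 called, 1 to 5 higher and 3 to 6 lower; the low ends came without replicate 1 or 3 of cortex or 1 of striatum, and the 5 higher without replicate 2 of cerebellum. With the replicate block on the 12 regional arrays 34 members were called for cerebellum against forebrain, 15 and 20 for olfactory bulb against cortex and striatum, and 9 for cortex against striatum, all within 1.5 times of the counts without it; 9 of 12 arrays correlated best with an array of their own number. The fit on the arrays compared alone was not run for whole brain against the regions, where it equals the fit used. The scanner log ratio moved the median of all genes in whole-brain cells to 0.25, against 0.09. Dim probes such as Stx11 and Sv2c are limited by signal over background. So is the dim sorted-cell signal of Syt9, and that of Syt4 in whole-brain cells.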
